A study of Mus musculus with 36 samples.

Results

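Mouse lung pericyte-like cells exposed for 24 h to injured bronchoalveolar lavage fluid (BALF, the fluid washed out of the air spaces) were compared with the same kind of cells kept for 24 h in media only. The comparison holds 12 of the 36 RNA-seq libraries of the series, chosen by their labels: 6 of injured BALF and 6 of media, each with 3 female and 3 male libraries. Cells of the injured BALF group were in medium of reduced serum with as much fluid again, and in the media group sterile PBS took the fluid's place. The 2 groups therefore differed both in the presence of lavage fluid and in the state of the lungs it came from. Libraries of uninjured BALF at 24 h, also 6, are given beside some results, and the 12 libraries of injured BALF and media at 6 h serve for the comparison over time. All cells came from lung digests expanded in culture, depleted of cells bearing CD31, CD45 or CD326 and then selected on PDGFRβ. They are thus cultured stromal cells picked by 1 surface marker. The labels give neither the kind of lung injury nor the strain and age of the mice. Nothing in them ties a library to its own animal or culture. The p-values thus reflect only how these libraries vary, which may be technical.

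Pericytes are the mural cells of capillaries: they sit in the basement membrane, contract, supply matrix, and respond to PDGF from endothelium through PDGFRβ. Fluid from an injured air space can carry cytokines, plasma proteins, haem and debris of dead cells. In stromal cells, cytokine and microbial signals release the transcription factor NF-kB from its inhibitors, and NF-kB switches on chemokines, adhesion molecules and its own inhibitors. Oxidants and electrophiles release NRF2, which acts through antioxidant response elements on genes of glutathione and NADPH supply.

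Windows of 250 bases ahead of a start site of 5 genes that rose are shown because they hold the letters these factors are known to bind. They are RefSeq sequences of GRCm38.p6, read 5′ to 3′ along the gene, with the match in capitals. In Nfkbia (chr12:55492648-55492897, minus strand), Cxcl2 (chr5:90903649-90903898, plus strand) and Cxcl1 (chr5:90890995-90891244, plus strand) the capitals mark the kappaB motif. For Nfkbia the match is on the opposite strand. As printed, the first of the capitals lay 29, 97 and 71 bases upstream of the start. In Txnrd1 (chr10:82858956-82859205, plus strand) and Gclm (chr3:122245307-122245556, plus strand) they mark the antioxidant response element TGACNNNGC on the opposite strand, 92 and 134 bases upstream. The Txnrd1 window belongs to 1 of 3 start sites of that gene and lies inside the gene, which begins at 82833951. The windows of its other start sites held no match.
Nfkbia: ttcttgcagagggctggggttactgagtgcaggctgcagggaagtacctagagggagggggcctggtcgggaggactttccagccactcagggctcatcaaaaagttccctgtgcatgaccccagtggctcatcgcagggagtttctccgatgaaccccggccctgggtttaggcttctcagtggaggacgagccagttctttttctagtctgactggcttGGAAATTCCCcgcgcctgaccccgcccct
Cxcl2: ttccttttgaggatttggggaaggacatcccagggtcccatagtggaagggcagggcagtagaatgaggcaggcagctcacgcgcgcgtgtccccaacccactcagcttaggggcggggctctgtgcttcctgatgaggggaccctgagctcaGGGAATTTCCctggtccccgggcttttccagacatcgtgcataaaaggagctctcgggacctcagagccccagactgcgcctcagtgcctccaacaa
Cxcl1: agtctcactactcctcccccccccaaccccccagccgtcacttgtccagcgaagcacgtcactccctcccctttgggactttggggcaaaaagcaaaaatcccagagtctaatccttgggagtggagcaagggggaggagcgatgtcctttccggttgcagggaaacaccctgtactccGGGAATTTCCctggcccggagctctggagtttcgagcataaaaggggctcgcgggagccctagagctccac
Txnrd1: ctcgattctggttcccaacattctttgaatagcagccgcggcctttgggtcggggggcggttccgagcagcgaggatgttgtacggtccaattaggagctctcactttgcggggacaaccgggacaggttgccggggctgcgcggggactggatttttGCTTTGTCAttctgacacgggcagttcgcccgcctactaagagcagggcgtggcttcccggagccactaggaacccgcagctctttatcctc
Gclm: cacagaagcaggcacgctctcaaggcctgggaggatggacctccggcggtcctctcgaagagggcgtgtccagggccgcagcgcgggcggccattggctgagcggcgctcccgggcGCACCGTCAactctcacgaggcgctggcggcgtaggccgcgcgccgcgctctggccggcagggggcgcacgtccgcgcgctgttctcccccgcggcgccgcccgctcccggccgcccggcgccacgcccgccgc

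Both strands of every such window were searched, and a gene with several windows counts where any of them matched. The kappaB motif was found in 7 of the 15 NF-kB genes that had a window and in 6 of 10 chemokines, against 5.67% of all 27025 genes with one. The antioxidant response element was found in 3 of 15 NRF2 targets, against 11.5% of all genes. The sterol regulatory element TCACNCCAC was found in 1 of 15 cholesterol genes, Hmgcs1, against 1.22%. These are matches of letters and do not show that a factor was bound.

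The 12 libraries held 19709427 to 33023570 counts each. Mitochondrial transcripts took 1.39% to 1.82% of the counts in 11 libraries and 3.87% in female media replicate 1, whose 10 most abundant genes took 12.6%. Replicates 1 and 2 lay close together in 3 of the 4 groups, with a coefficient of biological variation between them of 6.33% in male injured BALF, 8.16% in male media and 12.7% in female injured BALF. All other pairs within the groups lay between 17.9% and 40.6%. Whether replicates 1 and 2 are separate cultures is not stated. Counts of genes are therefore also given with the libraries numbered 1 and 2 summed into 1 sample where this moves them by over 1.5 times. Female media replicate 2 and male media replicate 3 carry description numbers out of line with those of the rest. With the 4 such libraries of the series left out, 2951 genes passed. PDGFRβ RNA was abundant in every library, while Higd1b, a defining marker of lung pericytes, had no count in any of the 12, and Kcnj8 and Abcc9 stayed at or below 0.642 CPM (counts per 1000000 counts, after scaling between libraries). The epithelial gene Epcam was at 0 in 11 of the 12, and the T cell genes Cd3e, Cd4 and Cd8a were at 0 throughout.

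At 24 h, injured BALF changed the RNA of these cells broadly, in both directions. Among the genes that passed, those of neutrophil and monocyte attraction, innate defence, oxidant defence and metal binding were mostly higher, and those of elastic fibres, collagens and contraction mostly lower. Of 15901 genes tested with edgeR's quasi-likelihood test, 3774 (23.7%) passed a Benjamini-Hochberg adjusted p of 0.05. Of these, 1834 (11.5%) were higher and 1940 (12.2%) lower in injured BALF. The difference was at least 2-fold for 1106 genes (6.96%), of which 543 were higher and 563 lower. The median log2 fold change of all genes tested was -0.007. All 6 injured BALF values lay above all 6 media values for 713 genes (4.48%) and below them for 648 (4.08%), together 8.56%. The counts of list members given below are to be read against these shares of all genes. With the libraries numbered 1 and 2 summed, 2126 genes passed, and without replicate 1 or replicate 2 of every group 1902 and 1341 passed. In such whole-culture RNA, fewer cells of a type and less RNA per cell cannot be told apart.

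**Figure D1:**
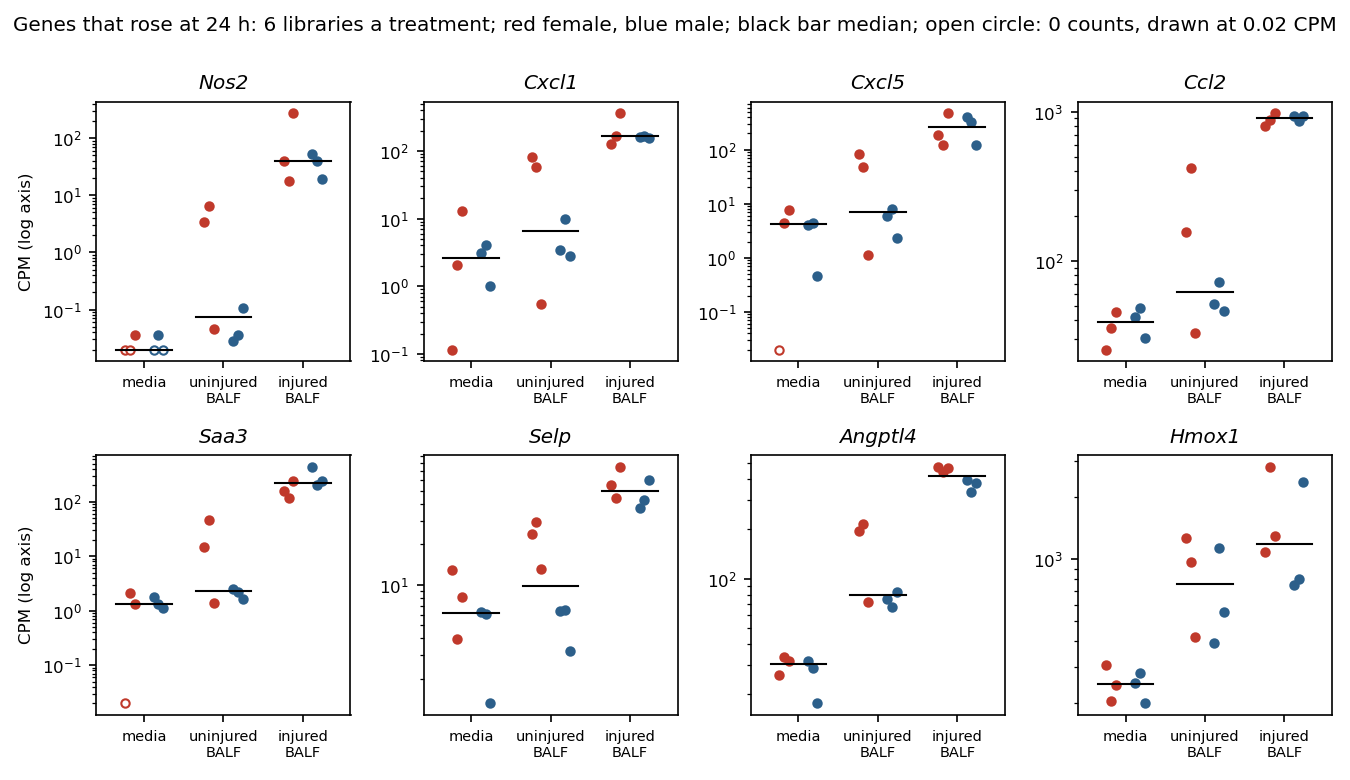
CPM on a log axis, with counts of 0 drawn at the lower edge, in each library of media, uninjured BALF and injured BALF at 24 h. The genes are a choice of those that rose: Nos2, Cxcl1, Cxcl5, Ccl2, Saa3, Selp, Angptl4 and Hmox1. Points are libraries, by sex, and bars are medians. For each gene drawn the injured BALF points lie above the media points, as for Saa3, at 116 to 430 CPM against 0 to 2.12 CPM.

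NF-kB subunits and the inhibitors that NF-kB itself induces were higher in injured BALF. Of the 18 genes, 14 rose and none fell, against 11.5% and 12.2% of all genes, with a median log2 fold change of 1.06. In 12 of them no injured BALF library overlapped with media, against 4.48% of all genes. Nfkbia, the inhibitor IkBα that holds NF-kB in the cytoplasm, had values from 65.3 to 123 CPM in injured BALF (median 84.0) and from 18.4 to 22.9 CPM in media (median 20.9). The groups were well apart, and the log2 fold change was 2.08 ± 0.18 (SE; adjusted p = 4.7e-09, edgeR). Zc3h12a, which encodes the RNase regnase-1 that degrades cytokine mRNAs, had 67.8 to 79.7 CPM (median 73.9) against 7.67 to 16.9 CPM (median 10.8). Its 6 injured BALF values were tightly grouped, and the log2 fold change was 2.65 ± 0.24 (adjusted p = 1.1e-08, edgeR). Tnfaip3, the ubiquitin-editing inhibitor A20, rose by 2.07 ± 0.31 on the log2 scale and Nfkbiz, a nuclear IkB protein, by 2.07 ± 0.27. The subunits moved less: Nfkb1 by 1.05 ± 0.14, Relb by 1.02 ± 0.13 and Nfkb2 by 0.82 ± 0.10. Rela, the p65 subunit, had a log2 fold change of 0.09 ± 0.11, and those of the deubiquitinases Cyld and Otulin were -0.07 ± 0.10 and 0.02 ± 0.09, none past the threshold.

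Chemokines were mostly higher in injured BALF. Of 16 tested, 12 rose and 2 fell, against 11.5% and 12.2% of all genes, with a median log2 fold change of 2.88. For 10 all injured BALF values lay above all media values, against 4.48% of all genes. The ligands of the neutrophil receptor CXCR2 lie side by side on chromosome 5, among them Cxcl1 (chr5:90891241-90893115, plus strand) and Cxcl2 (chr5:90903871-90905938, plus strand). Cxcl1 had a lowest, median and highest value of 126, 164 and 358 CPM in injured BALF and of 0.116, 2.61 and 12.9 CPM in media. Female injured BALF replicate 3 was the highest library, and the lowest injured BALF value was still far above the highest media value. The log2 fold change was 5.63 ± 0.81 (adjusted p = 1e-05, edgeR). Cxcl5, another CXCR2 ligand, had 122, 261 and 471 CPM against 0, 4.24 and 7.73 CPM, a log2 fold change of 6.26 ± 0.85. Cxcl2 and Cxcl3 were scarce in media, with 10 and 14 counts over the 6 libraries. The low-count filter keeps a gene with enough counts in any group, and both were tested only because other groups were higher. They could hardly be found lower and are no independent support for the count of rises. Their injured BALF values were 5.35 to 7.85 CPM and 5.97 to 10.7 CPM, all above the highest media values of 0.116 and 0.287 CPM.

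Ligands of the monocyte receptor CCR2 rose as well. The values of Ccl2 were 798, 907 and 973 CPM in injured BALF and 25.4, 38.5 and 48.0 CPM in media, so that the spread within either group was small beside the gap. The log2 fold change was 4.57 ± 0.41 (adjusted p = 1.1e-08, edgeR). Ccl7, which also signals through CCR2, had 385, 446 and 745 CPM against 9.35, 30.2 and 53.9 CPM. Ccl20, which draws CCR6-bearing lymphocytes and dendritic cells, had 44.6, 72.1 and 112 CPM against 0.325, 1.27 and 2.01 CPM. The transmembrane chemokine Cxcl16 rose by 2.72 ± 0.22 on the log2 scale. The 2 that fell were Cxcl12, the homeostatic stromal chemokine, by 0.86 ± 0.23, and Cxcl14, by 1.79 ± 0.40, both with overlapping groups. Cx3cl1 and Ccl8 did not pass, at -0.49 ± 0.25 and 1.04 ± 0.52.

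Some macrophage transcripts were higher in injured BALF than in media. The 12 macrophage markers summed to 57.6 to 76.4 CPM in injured BALF (median 64.4) and 13.8 to 57.9 CPM in media (median 45.2). In uninjured BALF they summed to 14.1 to 86.7 CPM, and the median of 62.2 was close to that of injured BALF. Of the 12, 4 rose (Csf1r, Mrc1, Itgam and Msr1) and none fell. Lysozyme (Lyz2), which made up most of the sum, had a log2 fold change of 0.71 ± 0.40 (adjusted p = 0.2, edgeR). The pan-leukocyte gene Ptprc stayed at 0.694 to 1.55 CPM in injured BALF and 0.278 to 1.07 CPM in media. The part of these cells in the inflammatory results was not tested. With the libraries numbered 1 and 2 summed, 2 macrophage markers rose.

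Among colony-stimulating factors, Csf3 (G-CSF) and Csf2 (GM-CSF) rose and Csf1 did not pass. Csf3 had 3.26, 6.55 and 9.95 CPM in injured BALF and 0, 0.165 and 0.322 CPM in media, a log2 fold change of 5.55 ± 0.67 (adjusted p = 8.2e-07, edgeR). Csf2 had 0.916 to 2.50 CPM against 0 in 5 media libraries and 0.145 CPM in the sixth. Csf2 too was tested only because other groups were higher. Csf1, the growth factor of macrophages, was at 1560 to 3010 CPM against 1590 to 3320 CPM, with a log2 fold change of 0.18 ± 0.17. Of 19 cytokines and cytokine receptors, 8 rose and 3 fell, against 11.5% and 12.2% of all genes, with a median of 0.63. The share that fell was thus near that of all genes. The interleukin Il6 had 112, 171 and 259 CPM against 7.33, 15.2 and 39.3 CPM, a log2 fold change of 3.29 ± 0.43 (adjusted p = 2.4e-06, edgeR). Lif, of the same cytokine family, had 73.2, 136 and 231 CPM against 10.2, 17.5 and 35 CPM. For both, every injured BALF library was above every media library. The shared receptor chain of the family, Il6st (gp130), fell by 0.70 ± 0.14 and the LIF receptor Lifr by 0.74 ± 0.26, while Il6ra rose by 0.44 ± 0.15. The count of falls was 1 without any single one of female media replicate 2, male media replicate 2, female injured BALF replicates 1 or 2 and male injured BALF replicates 2 or 3, and 1 with libraries 1 and 2 summed. Il1a rose from 4 counts over the media libraries to between 0.166 and 14.6 CPM, while Il1b and Tnf were too scarce to be tested. Like Csf2, Il1a was tested only because other groups were higher.

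Innate defence and acute phase genes rose by large amounts. Of 13 tested, 10 rose and none fell, against 11.5% and 12.2% of all genes, with a median log2 fold change of 3.32. For all 10 the injured BALF values lay above the media values, against 4.48% of all genes. Nos2, the inducible nitric oxide synthase (chr11:78920787-78960254, plus strand), was close to absent in media, with 2 counts over the 6 libraries. It was tested only because other groups were higher, so it is no independent support for the count of rises. In injured BALF it had 17.5, 39.4 and 271 CPM, the highest in female replicate 3. The pooled counts, 14015 against 2, gave a ratio of 6.75e+03 (95% exact interval 1.87e+03 to 5.57e+04, counting error only; adjusted p = 3.9e-09, edgeR). Without female injured BALF replicate 3 the ratio was 2.59e+03 (718 to 2.14e+04), an alternative chosen after seeing the data. Saa3, an acute phase protein made outside the liver (chr7:46711998-46715700, minus strand), had 116, 221 and 430 CPM against 0, 1.33 and 2.12 CPM, a log2 fold change of 7.39 ± 0.64 (adjusted p = 6.6e-09, edgeR). Lcn2, which withholds bacterial siderophores, had 41.7, 57.0 and 133 CPM against 0, 0.755 and 4.38 CPM. Ceruloplasmin (Cp), a copper-carrying ferroxidase, had 82.5 to 179 CPM against 4.59 to 25.7 CPM, and the metalloreductase Steap4 had 25.3 to 73.2 CPM against 0.0581 to 2.71 CPM. Steap4 rose by 5.56 ± 0.59 on the log2 scale and Cp by 3.25 ± 0.41. Lbp, Serpina3n and the interleukin-1 antagonist Il1rn did not pass, at 0.69 ± 0.66, 0.49 ± 0.53 and -0.35 ± 0.73.

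Genes that neutrophils also make were among those that rose, at low levels. The neutrophil markers Mmp8, Camp and S100a8 were the 3 of that list that could be tested, and all 3 rose. The low-count filter keeps a gene with enough counts in any group. Camp, at 0 to 0.117 CPM in media at 24 h, was tested only because other groups were higher. The count of 3 out of 3 is therefore no independent support for a rise of the list. S100a8 lost its call with the libraries numbered 1 and 2 summed. The list summed to 5.58 to 9.14 CPM in injured BALF and 0.348 to 1.93 CPM in media. The defining marker Ly6g had no count in any library, and Elane, Mpo, Ltf and Cxcr2 stayed at or below 0.25 CPM. The airway secretory gene Scgb1a1 had 25 counts over the injured BALF libraries and 0 in media, at least 8.02-fold higher against a floor of 3 counts over the media group. Its median in uninjured BALF was 0.317 CPM, against 0.131 CPM in injured BALF.

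Sensors and adhesion molecules rose in part. Of 18 pattern recognition genes, 7 rose and 1 (Tlr6) fell, against 11.5% and 12.2% of all genes, with a median of 0.15. Tlr2, the receptor for bacterial lipopeptides, rose by 1.71 ± 0.30 on the log2 scale and its co-receptor Cd14 by 1.35 ± 0.20, while the adaptor Myd88 was at -0.13 ± 0.12 and Irak4 at -0.12 ± 0.13. Of 13 leukocyte adhesion genes, 5 rose and 1 (Alcam) fell, against the same shares of all genes. P-selectin (Selp), which catches rolling leukocytes, had 37.4, 49.7 and 74.9 CPM against 1.32, 6.12 and 12.9 CPM, with a log2 fold change of 3.10 ± 0.33 (adjusted p = 1.3e-07, edgeR). Vcam1 had 752, 833 and 965 CPM against 206, 348 and 487 CPM, and the groups again did not overlap. Endothelial markers did not rise with Selp and Sele. The 12 markers summed to 84.6 to 256 CPM in injured BALF and 85.8 to 234 CPM in media. Of them 2, Kdr and Flt1, fell, a share near the 12.2% of all genes. Both lost the call with the libraries numbered 1 and 2 summed.

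Few genes of the interferon programme, antigen presentation and complement passed the test. Of 22 interferon-stimulated genes, 2 (Ifit2 and Gbp3) rose and none fell, a share near the 11.5% of all genes that rose. Their median log2 fold change was 0.60, with wide spread between libraries: Ifit1 ran from 3.47 to 49.6 CPM in injured BALF and from 2.26 to 19.2 CPM in media. The count was 7 without female media replicate 3, 5 without female injured BALF replicate 2 and 0 with the libraries numbered 1 and 2 summed. Of 13 genes of MHC class I and the immunoproteasome, H2-K1 alone rose, by 0.90 ± 0.15. Of 13 complement genes, C3 rose, with 134, 255 and 628 CPM against 8.01, 34.4 and 128 CPM, and Cd59a, a shield against the membrane attack complex, fell by 1.14 ± 0.23.

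Genes for prostanoid synthesis and kinin sensing rose together. Of 12 tested, 8 rose and none fell, with a median of 1.07. Both kinin receptor genes rose: Bdkrb1 had 6.03, 8.80 and 9.64 CPM against 0.174, 0.771 and 1.30 CPM, and Bdkrb2 had 1.11, 2.77 and 3.10 CPM against 0.0581, 0.205 and 0.487 CPM. Their log2 fold changes were 3.42 ± 0.34 and 3.25 ± 0.44. Along the route to prostaglandin E2, the phospholipase Pla2g4a that frees arachidonate rose by 1.04 ± 0.12, the cyclooxygenase Ptgs2 by 2.02 ± 0.43 and the terminal synthase Ptges by 1.84 ± 0.21 (adjusted p = 2.6e-07, 0.00097 and 5.2e-07, edgeR). Ptgs2 reached 538 to 1990 CPM in injured BALF and 89.8 to 779 CPM in media, so its groups overlapped, while those of Ptges did not. The prostaglandin receptor genes Ptger2 and Ptger4 did not pass, at 1.03 ± 0.64 and 0.23 ± 0.27.

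Oxidant defence was a second broad response. Of 20 NRF2 targets, 17 rose and none fell, against 11.5% and 12.2% of all genes, with a median log2 fold change of 1.27. For 11 all injured BALF values lay above all media values, against 4.48% of all genes. Hmox1, the haem-degrading oxygenase, had 752, 1190 and 2810 CPM in injured BALF and 199, 247 and 306 CPM in media. Its lowest injured BALF value was over the highest media value, and the log2 fold change was 2.61 ± 0.33 (adjusted p = 1.4e-06, edgeR). Gclm and Gclc, the subunits of the first enzyme of glutathione synthesis, rose by 1.41 ± 0.29 and 1.27 ± 0.25. Slc7a11, the cystine importer that feeds it, had 18.4, 62.0 and 225 CPM against 5.10, 8.25 and 28.5 CPM, with overlapping groups. Pgd and Taldo1, of the NADPH-making pentose phosphate pathway, rose by 1.34 ± 0.15 and 1.27 ± 0.23, and the thioredoxin reductase Txnrd1 by 1.27 ± 0.20. Me1, Gstm1 and Osgin1 did not pass, at 0.10 ± 0.08, 0.09 ± 0.25 and 0.11 ± 0.29. Without replicate 2 of every group, 11 of the 20 rose.

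Among 15 scavengers of superoxide and peroxide, 8 rose and 1 fell. Sod2, the superoxide dismutase of mitochondria and a target of NF-kB, had 95.2, 116 and 156 CPM against 32.7, 37.3 and 43.1 CPM, a log2 fold change of 1.65 ± 0.13 (adjusted p = 3.3e-09, edgeR). The cytosolic Sod1 rose by 0.24 ± 0.07 and the extracellular Sod3 was at -0.08 ± 0.25. The peroxiredoxins Prdx1 and Prdx6 rose by 1.59 ± 0.31 and 1.54 ± 0.15, while the glutathione peroxidase Gpx1 fell by 0.49 ± 0.14. With libraries 1 and 2 summed, with another scaling (the upper quartile) or without male injured BALF replicate 3, 5 of the 15 rose.

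Metal-binding and iron genes rose as a set, 11 of 13 with none lower and a median of 1.49. Mt2, a zinc and copper buffer, had 212, 244 and 347 CPM against 18.7, 39.6 and 53.4 CPM, a log2 fold change of 2.76 ± 0.27, and Mt1 rose by 1.71 ± 0.18. The iron importers Tfrc (transferrin receptor) and Slc11a2 (DMT1) rose by 1.54 ± 0.15 and 1.49 ± 0.12, and the ferritin chains Fth1 and Ftl1, which store iron, by 1.24 ± 0.20 and 0.36 ± 0.11. The iron exporter Slc40a1 did not pass, at 0.50 ± 0.36.

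The single lowest adjusted p of the comparison belonged to Angptl4, a secreted inhibitor of lipoprotein lipase (chr17:33773750-33781830, minus strand). It had 332, 418 and 472 CPM in injured BALF and 17.6, 30.2 and 33.5 CPM in media, a log2 fold change of 3.87 ± 0.21 (adjusted p = 5e-13, edgeR). Angptl4 is a target of PPAR factors, glucocorticoids and hypoxia. In the glucocorticoid list 8 of 12 rose and 2 fell, with well-known members on both sides: Sgk1 rose by 1.24 ± 0.22 and Cebpd by 1.42 ± 0.24, Tsc22d3 and Klf9 fell by 0.52 ± 0.13 and 0.44 ± 0.15, and Fkbp5 did not pass at 0.40 ± 0.16. With libraries 1 and 2 summed, 5 rose. Of 22 genes of fatty acid synthesis, lipid droplets and LXR, 11 rose and 2 fell. The droplet coat Plin2 rose by 1.48 ± 0.17, the carnitine transferase Cpt1a by 0.77 ± 0.09 and Pdk4, which turns pyruvate away from oxidation, by 1.96 ± 0.22. Plin4, another droplet coat, had 0.626 to 1.14 CPM against 3.94 to 8.63 CPM and fell by 2.59 ± 0.29, and the cholesterol exporter Abca1 fell by 0.58 ± 0.14.

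Genes of cholesterol synthesis and uptake rose by small amounts, 13 of 23 with none lower and a median of 0.41. Hmgcs1, a synthase early in the pathway, had 135, 188 and 221 CPM (lowest, median and highest) against 117, 139 and 167 CPM, a log2 fold change of 0.41 ± 0.13 (adjusted p = 0.022, edgeR), and its groups overlapped. With the libraries numbered 1 and 2 summed, 6 of the 23 rose.

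**Figure D2:**
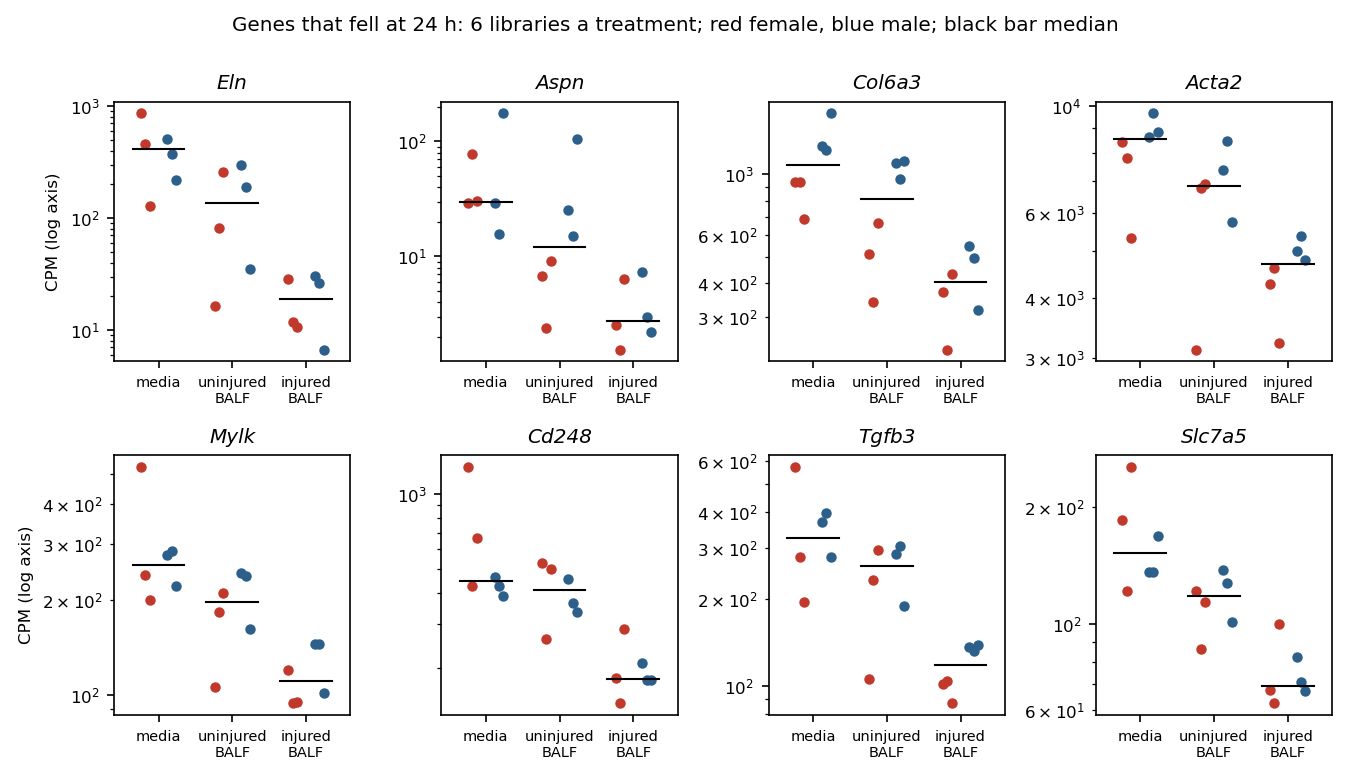
CPM on a log axis in each library of media, uninjured BALF and injured BALF at 24 h. The genes are a choice of those that fell: Eln, Aspn, Col6a3, Acta2, Mylk, Cd248, Tgfb3 and Slc7a5. Points are libraries, by sex, and bars are medians. Among the genes drawn, injured BALF and media overlap for Acta2 alone, and Eln runs from 6.70 to 30.5 CPM against 129 to 858 CPM.

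Several of the largest falls were in genes of the matrix. Among the 12 largest falls, the injured BALF and media groups overlapped for Ccn3, Ogn and Pax3 alone. Eln, the elastin precursor (chr5:134702593-134747323, minus strand), had 6.70, 18.9 and 30.5 CPM in injured BALF and 129, 416 and 858 CPM in media. Its log2 fold change was -4.47 ± 0.77 (adjusted p = 8.9e-05, edgeR). Of 21 genes of elastic fibres and their crosslinking, 7 fell and none rose, against 12.2% of all genes lower. Fbln5, which seats elastin on microfibrils, had 131, 242 and 383 CPM against 644, 806 and 985 CPM and fell by 1.65 ± 0.28, and Mfap4 fell by 1.77 ± 0.26. The scaffold and the main crosslinker did not pass: Fbn1 was at -0.38 ± 0.15 and Lox at 0.11 ± 0.16. With libraries 1 and 2 summed, 4 of the 21 fell.

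Collagens were lower in part. Of 19, 8 fell and 1 rose, with a median of -0.48. The beaded filament collagen Col6a3 had 229, 403 and 549 CPM against 688, 1080 and 1670 CPM and fell by 1.46 ± 0.20 (adjusted p = 3.4e-06, edgeR), with Col6a1 and Col6a2 lower by 1.16 ± 0.29 and 1.5 ± 0.35 on the same scale. Col5a1, which nucleates fibrils, fell by 0.88 ± 0.16, whereas its partner chain Col5a3 rose by 0.96 ± 0.16. The main fibrillar chains did not pass: Col1a1 was at -0.48 ± 0.20 and Col1a2 at -0.49 ± 0.19 (adjusted p = 0.081 and 0.069, edgeR), and Col3a1 was at -0.52 ± 0.38. The count of falls was 5 without male media replicate 1, female injured BALF replicate 2 or male injured BALF replicate 3, and 5 with libraries 1 and 2 summed.

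Small leucine-rich proteoglycans and adhesive matrix genes split, with 6 of 18 lower and 5 higher. Aspn, which binds collagen and TGF-beta, had 1.55, 2.74 and 7.26 CPM against 15.7, 29.9 and 175 CPM, a log2 fold change of -3.93 ± 0.67. Fmod, a regulator of collagen fibril width, fell by 2.48 ± 0.36 and Ogn by 2.69 ± 0.45, while Dcn of the same family rose by 1.01 ± 0.25. The hyaluronan synthases Has1 and Has2 rose by 1.52 ± 0.44 and 1.51 ± 0.37, and the hyaluronan-binding proteoglycan Vcan by 1.01 ± 0.23. With libraries 1 and 2 summed, 2 of the 18 rose. In the basement membrane, 3 of 12 rose and 1 fell: Nid1 rose by 1.15 ± 0.19 and Lamb1 by 0.46 ± 0.08, and Lamb2 fell by 0.90 ± 0.10.

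Several matrix-degrading enzymes rose, and their inhibitors moved in both directions. Of 14 matrix metalloproteinases, 6 rose, against 11.5% of all genes. The 2 that fell (Mmp11 and Mmp14) were a share near the 12.2% of all genes, with 4 lower without female media replicate 3. The stromelysin Mmp10 had 11.5, 74.4 and 90.2 CPM against 0.361, 4.01 and 7.45 CPM, a log2 fold change of 4.07 ± 0.56, and the collagenase Mmp13 had 51.2, 123 and 246 CPM against 3.11, 12.9 and 22.8 CPM, 3.35 ± 0.43 (adjusted p = 5e-06 and 1.7e-06, edgeR). The gelatinase Mmp9 rose by 3.45 ± 0.46, while Mmp2 was at -0.88 ± 0.36 and did not pass. Of 12 TIMP and ADAMTS genes, 6 fell and 3 rose. Timp3, the inhibitor that stays bound to matrix, had 610, 756 and 1340 CPM against 1580, 2220 and 3730 CPM and fell by 1.58 ± 0.19. Timp1, the soluble inhibitor, moved the other way and rose by 1.16 ± 0.18, and Adamts7, which cleaves the matrix protein COMP, by 1.51 ± 0.17.

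Contractile genes fell as a set: 15 of 19 fell, against 12.2% of all genes, and none rose, with a median log2 fold change of -0.87. For 6 of the 19 all injured BALF values lay below all media values, against 4.08% of all genes. Acta2, smooth muscle actin, had 3230, 4710 and 5370 CPM in injured BALF and 5330, 8530 and 9650 CPM in media. The lowest media library lay just under the highest injured BALF library, and the log2 fold change was -0.83 ± 0.18 (adjusted p = 0.00093, edgeR). Cnn1 (calponin), which damps myosin activity, had 211, 361 and 444 CPM against 464, 756 and 916 CPM, and Mylk, the myosin light chain kinase, fell by 1.32 ± 0.20. The regulator Myocd fell by 1.45 ± 0.47 at about 1 CPM or less in most libraries, and its partner Srf was at -0.25 ± 0.20. Myh11 did not pass at -1.18 ± 0.47 (adjusted p = 0.067, edgeR). Without replicate 2 of every group 7 of the 19 fell. With female media replicate 1 and the libraries of differing description numbers left out together, 6 fell. Of 13 YAP and TEAD targets, 1 (Axl) rose and 1 (Amotl2) fell, shares below the 11.5% and 12.2% of all genes.

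The pericyte and fibroblast markers were lower too. The pericyte markers summed to 838, 1240 and 1550 CPM in injured BALF and 1730, 2050 and 3270 CPM in media, and 6 of 13 tested fell with none higher. The selection marker Pdgfrb had 303, 483 and 618 CPM against 668, 747 and 862 CPM and fell by 0.65 ± 0.16 (adjusted p = 0.0044, edgeR). Mcam fell by 1.60 ± 0.32, Cd248 by 1.56 ± 0.21 and the transcription factor Ebf1 by 1.01 ± 0.15. The fibroblast markers summed to 379 to 747 CPM against 729 to 911 CPM, and 5 of 13 fell, among them Itga8 by 2.34 ± 0.40 and Limch1 by 2.53 ± 0.35. Of these markers 3 fell without male media replicate 1, female injured BALF replicate 2 or male injured BALF replicate 3, and 3 with libraries 1 and 2 summed. Mesothelial markers summed to 24.8 to 174 CPM and 20.9 to 114 CPM, with none of 9 past the threshold. The part of a changed cell mixture in the lower matrix and contractile genes was not tested.

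Other large falls were in genes outside these lists. Map2, a microtubule-binding protein best known from neurons, had 2.24, 3.47 and 5.47 CPM against 25.5, 30.2 and 39.9 CPM, a log2 fold change of -3.12 ± 0.42. Cmklr1, the receptor for chemerin, had 0.886 to 1.98 CPM against 5.31 to 22.2 CPM and fell by 2.84 ± 0.41. Both were separated in every library. Pax3, a transcription factor of muscle and neural crest precursors, fell by 2.48 ± 0.52 with values from 0.943 to 13.1 CPM against 1.05 to 48.2 CPM, so that 1 media library lay near the bottom of the injured BALF range.

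**Figure D3:**
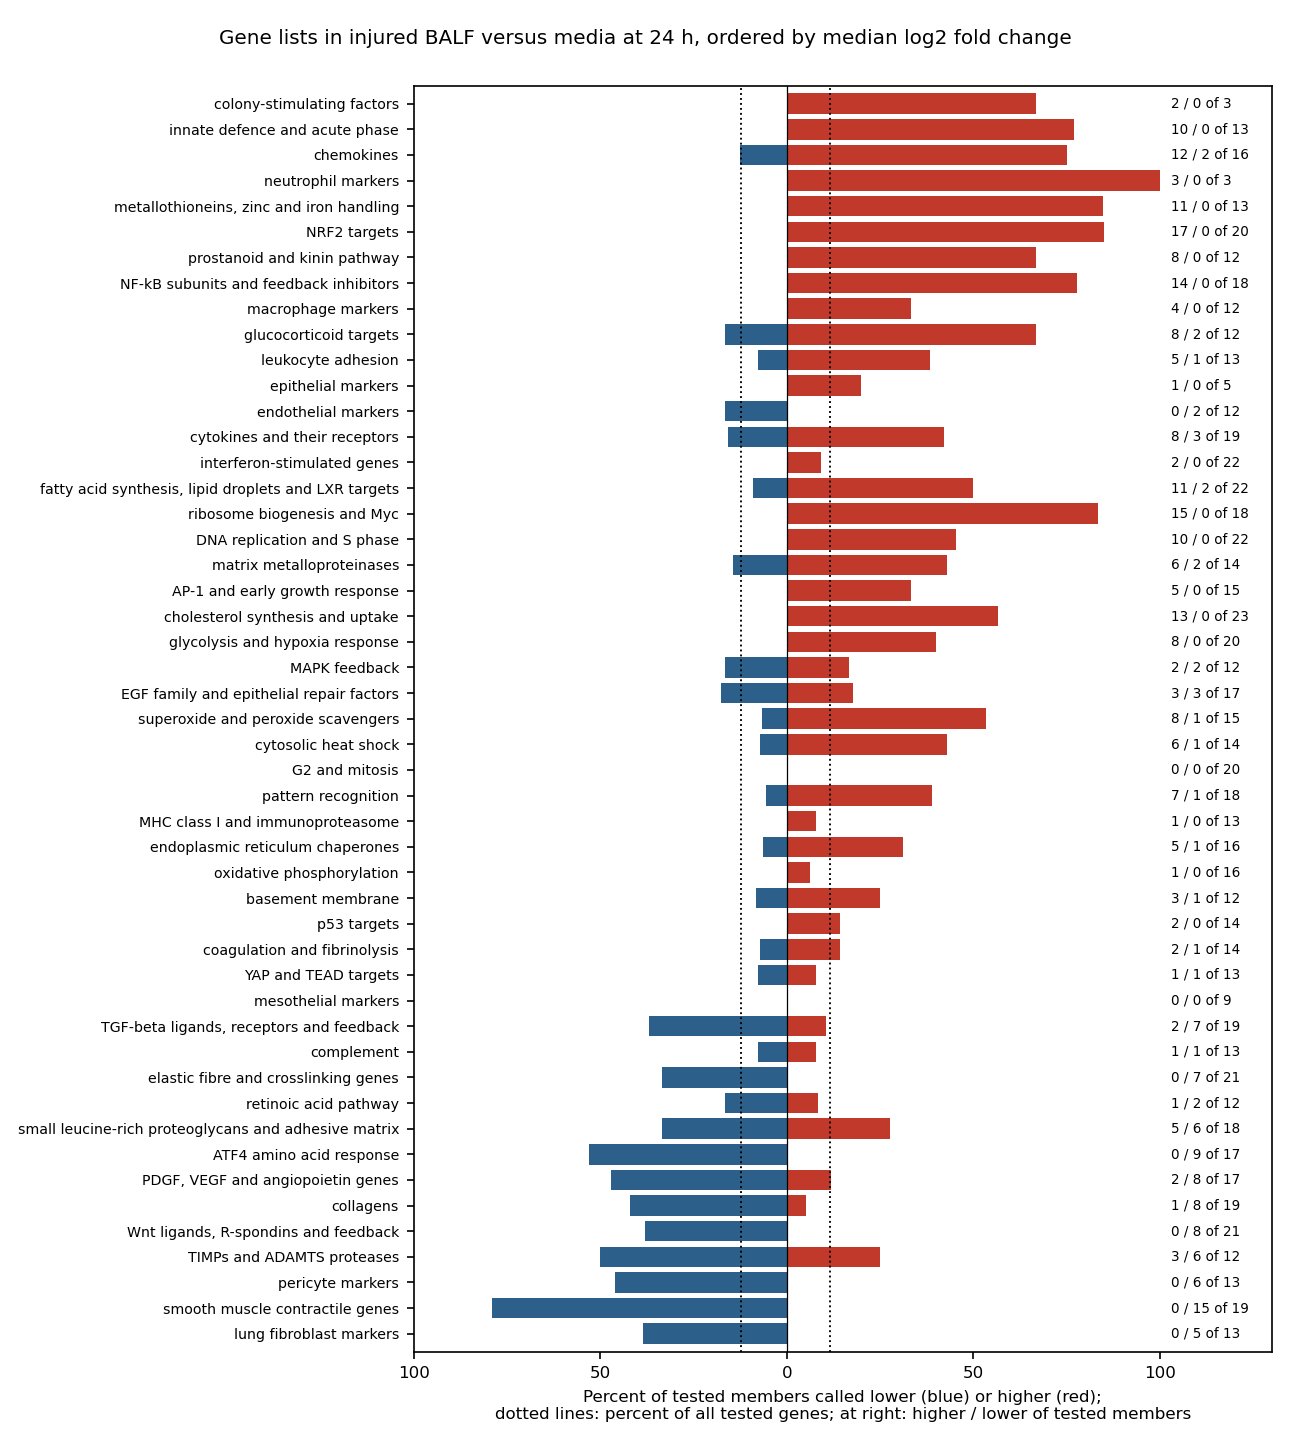
Percent of the tested members of each gene list that were lower (blue, to the left) or higher (red, to the right) in injured BALF than in media at 24 h, ordered by the list's median log2 fold change; dotted lines mark 12.2% and 11.5%, the shares of all 15901 genes. Innate defence (10 of 13), chemokines (12 of 16) and NRF2 targets (17 of 20) lie toward the top and contractile genes (15 of 19 lower) at the bottom.

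Growth factor genes shifted mainly downward. In the TGF-beta family, 7 of 19 fell and 2 rose, with 5 higher without female media replicate 1. The ligands Tgfb2 and Tgfb3 fell by 1.71 ± 0.20 and 1.60 ± 0.24, while Tgfb1 was at 0.19 ± 0.25. The co-receptor Tgfbr3 rose by 1.37 ± 0.30 and the signal carrier Smad3 by 0.63 ± 0.13. Bmp4 had 4.27, 6.32 and 12.0 CPM against 21.7, 28.7 and 39.8 CPM and fell by 2.01 ± 0.28. Among 17 PDGF, VEGF and angiopoietin genes, 8 fell and 2 rose, with 5 lower once libraries 1 and 2 were summed. Angpt2, which loosens the tie between pericytes and endothelium, had 13.8, 22.9 and 25.5 CPM against 26.1, 62.1 and 78.9 CPM and fell by 1.42 ± 0.23. The lymphatic growth factor Vegfc rose by 1.73 ± 0.21, while its relative Vegfd fell by 1.64 ± 0.32 and Vegfa was at 0.29 ± 0.20.

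Of 21 Wnt pathway genes, 8 fell and none rose. The count of falls was 5 without female media replicate 2 or male media replicate 3, and 4 with libraries 1 and 2 summed. Nkd1, an inhibitor that Wnt signalling itself induces, had 2.56, 3.06 and 3.59 CPM against 9.85, 12.2 and 15.5 CPM, a log2 fold change of -1.97 ± 0.23 (adjusted p = 6.1e-07, edgeR). Wnt4 fell by 3.53 ± 0.46 and the R-spondin Rspo2, which amplifies Wnt signals, by 2.09 ± 0.46. Axin2, the other usual feedback gene, was near 1 CPM or less in all libraries and did not pass, at -0.24 ± 0.68. Of 17 genes of the EGF family and epithelial repair, 3 rose and 3 fell, against 11.5% and 12.2% of all genes. Without female media replicate 1 the rises numbered 5. Fgf7, keratinocyte growth factor, had 219, 276 and 310 CPM against 106, 133 and 190 CPM and rose by 0.96 ± 0.14. The EGF receptor ligand Ereg rose by 1.71 ± 0.38, while Igf1 fell by 1.48 ± 0.24 and Nrg1 by 0.71 ± 0.14. Of 12 retinoic acid genes, Rarb rose and Rara and Aldh1a3 fell, shares near the 11.5% and 12.2% of all genes. None of these 3 passed with libraries 1 and 2 summed.

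Some genes of growth and metabolism rose. Of 18 ribosome biogenesis genes including Myc, 15 rose and none fell, with a median of 0.43. Myc itself had 64.0 to 100 CPM against 22.5 to 98.3 CPM, a rise of 0.77 ± 0.25, and Polr1b, a subunit of RNA polymerase I, rose by 0.66 ± 0.11. The count was 7 in a fit of the 12 libraries alone, 9 without the 4 libraries of differing description numbers and 3 without replicate 2 of every group. Of 22 genes of DNA replication and S phase, 10 rose, among them the thymidylate synthase Tyms by 0.70 ± 0.15, with 5 higher without male media replicate 1 and 3 with libraries 1 and 2 summed. None of 20 genes of G2 and mitosis passed, where Mki67 was at 0.00 ± 0.20. With edgeR on the 12 libraries alone, 3 of them passed. Of 20 genes of glycolysis and the hypoxia response, 8 rose, such as the prolyl hydroxylase Egln3 by 1.13 ± 0.21 and hexokinase Hk2 by 0.83 ± 0.20. That count was 4 without female media replicate 2, 5 without female injured BALF replicate 3 and 13 without female media replicate 3. Of 16 oxidative phosphorylation genes, cytochrome c (Cycs) alone rose, by 0.46 ± 0.12.

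The amino acid response driven by ATF4 was lower: 9 of 17 fell and none rose, with a median of -0.40. Slc7a5, the large neutral amino acid transporter, had 62.5, 69.2 and 100 CPM against 122, 153 and 254 CPM and fell by 1.15 ± 0.14 (adjusted p = 6.2e-07, edgeR). Atf5 and the stress factor Ddit3 (CHOP) fell by 1.16 ± 0.11 and 1.01 ± 0.16. With libraries 1 and 2 summed 4 of the 17 fell. Of 16 endoplasmic reticulum chaperones and related genes, 5 rose and Herpud1 fell, with 1 higher and none lower once libraries were summed. Of 14 heat shock genes, not all of them cytosolic (Hspd1 is mitochondrial), 6 rose and Hspa1b fell. Of 14 p53 targets, Mdm2 and Fas rose, a share near the 11.5% of all genes, and Cdkn1a was at -0.01 ± 0.08.

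Some early response genes were higher at 24 h. Of 15 AP-1 and early growth response genes, 5 rose, against 11.5% of all genes. Ier3, a target of NF-kB, led them with 138, 173 and 252 CPM against 21.6, 34.4 and 69.5 CPM. Its log2 fold change was 2.27 ± 0.28. Fosl1 rose by 1.58 ± 0.33, while Fos and Egr1 varied widely within both groups and were at 0.21 ± 0.62 and 0.68 ± 0.79. The count was 3 without female media replicate 2, male media replicate 3 or female injured BALF replicate 2, and 3 with libraries 1 and 2 summed. Of 12 MAPK feedback genes, Dusp6 and Spry2 rose and Dusp8 and Spry1 fell, shares near the 11.5% and 12.2% of all genes. Of 14 coagulation genes, Procr, the protein C receptor, rose by 2.39 ± 0.38 and Tfpi2 by 1.74 ± 0.24, and the thrombin receptor F2r fell by 0.91 ± 0.21. Serpinb2, the intracellular plasminogen activator inhibitor and outside the list, had 35.8, 47.7 and 79.2 CPM against 1.19, 1.76 and 2.89 CPM, a log2 fold change of 4.83 ± 0.54.

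The effect was also compared between female and male cells. The difference between the sexes passed for no gene with edgeR, where 670 had an unadjusted p under 0.05, and for none with DESeq2, where 717 had. Of the 3774 genes called, 3763 had the same direction in both sexes. The calls came from averaging over the sexes, which by itself favours genes that share a direction. The count of 3763 is therefore no independent support for a like effect in female and male cells. Within the fit of all 36 libraries, the female effect alone passed for 2848 genes and the male effect alone for 695. This does not show that the effects differ. Angptl4 had a log2 fold change of 3.92 ± 0.30 in female and 3.82 ± 0.30 in male cells, and Acta2 one of -0.83 ± 0.25 and -0.84 ± 0.25. For Timp3 they were -2.17 ± 0.27 and -0.98 ± 0.26, with a difference of 1.19 ± 0.37 (adjusted p = 0.99, edgeR). Cxcl3, nearly absent in media, had 10.85 ± 1.66 and 5.34 ± 0.99, and the difference was -5.51 ± 2.98 (adjusted p = 0.99, edgeR). For Tmtc1 the effects were -4.13 ± 0.68 and -2.60 ± 0.63.

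**Figure D4:**
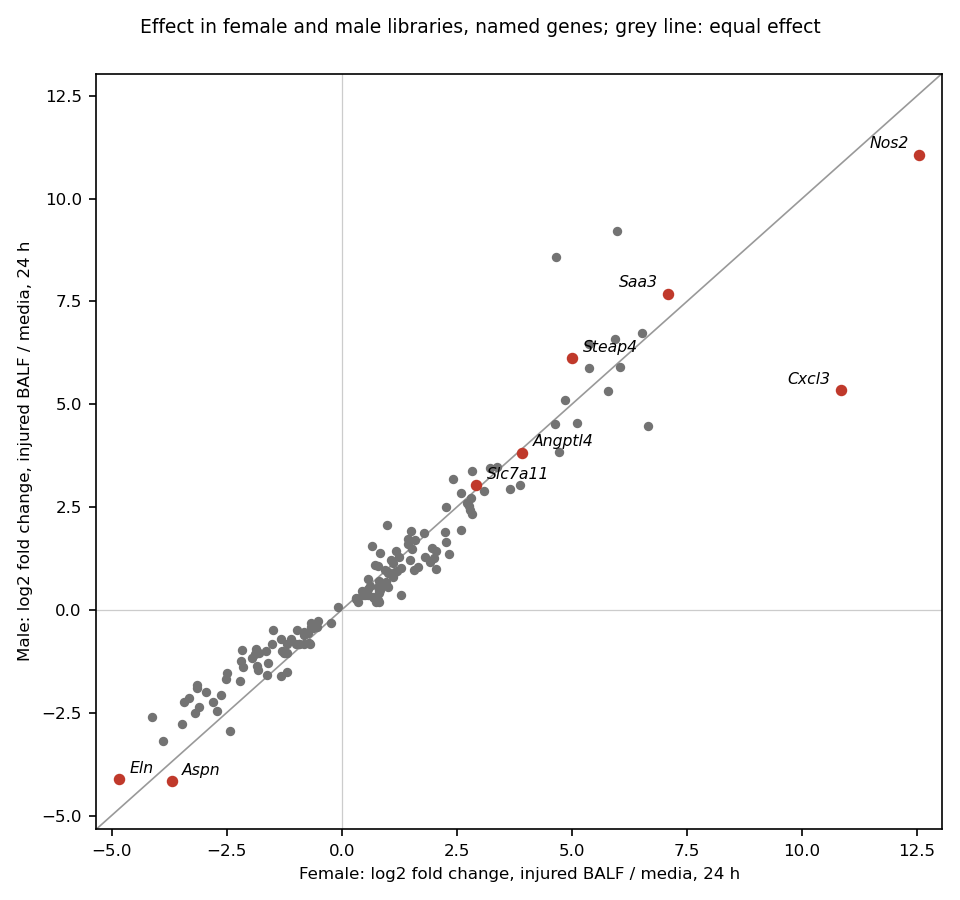
Log2 fold change of injured BALF over media at 24 h in female cells (x axis) against male cells (y axis) for the named genes. SEs are not drawn, and the grey line marks equal effects. Eln at -4.83 and -4.12 and Saa3 at 7.09 and 7.69 lie near the line, and Cxcl3 at 10.85 and 5.34 lies off it.

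The effect at 24 h was then set against that at 6 h. The difference between the times passed for 414 genes (2.6%), 183 with a larger log2 fold change at 24 h and 231 with a smaller one, and 229 of the genes called at 24 h were among them. Saa3 grew with time: injured BALF had 18.9, 27.6 and 60.4 CPM at 6 h and 116, 221 and 430 CPM at 24 h, while media stayed at 0.254 to 5.85 CPM and 0 to 2.12 CPM. Its log2 fold change was larger at 24 h by 3.81 ± 0.78 (adjusted p = 0.007, edgeR). Prl2c2, a placental hormone gene with near-identical copies among which reads may be split, differed by 3.10 ± 0.69. Ahrr, the repressor of the aryl hydrocarbon receptor, was below media at 6 h (0.857 to 3.96 against 5.60 to 11.2 CPM) and higher at 24 h (2.27 to 6.73 against 1.40 to 3.36 CPM), a difference of 2.74 ± 0.54.

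Narf gave the smallest p of the difference. It had 2.96 to 5.13 CPM in injured BALF against 22.9 to 31.2 CPM in media at 6 h, and 21.7 to 29.9 CPM against 28.2 to 34.3 CPM at 24 h. The fall at 6 h was thus nearly gone at 24 h, and the effects differed by 2.36 ± 0.18 (adjusted p = 2.2e-09, edgeR). Other genes had risen early. Icam1, the adhesion ligand of leukocyte integrins, had 158, 185 and 320 CPM at 6 h against 8.76 to 26.3 CPM in media, and 38.3, 48.0 and 62.5 CPM at 24 h against 13.6 to 39.8 CPM, a difference of -2.32 ± 0.27 (adjusted p = 1.3e-05, edgeR). Pdgfb, the ligand of PDGFRβ, had 12.3 to 49.4 CPM at 6 h and 1.12 to 6.27 CPM at 24 h in injured BALF, a difference of -2.56 ± 0.59, and the retinoic acid enzyme Aldh1a3 turned from higher at 6 h to lower at 24 h, by -2.39 ± 0.38. Podn, a small leucine-rich proteoglycan, had a log2 fold change of -0.69 ± 0.32 at 6 h and -2.73 ± 0.34 at 24 h, a difference of -2.04 ± 0.45.

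For several of the strongest effects the difference between the times did not pass. It was 0.05 ± 0.27 for Angptl4, -0.03 ± 0.44 for Hmox1 and 0.02 ± 0.59 for Ptgs2. For Eln it was -3.11 ± 0.96 (adjusted p = 0.081, edgeR) and for Nfkbia -0.66 ± 0.24 (adjusted p = 0.16). The count of 414 rested on few libraries: it was 39 with the libraries numbered 1 and 2 summed, 18 without replicate 1 and 17 without replicate 2 of every group, and 239 without female injured BALF 6 h replicate 1. Icam1 and Narf still passed with libraries 1 and 2 summed, whereas Saa3, Prl2c2, Ahrr, Pdgfb, Aldh1a3 and Podn did not. Pdgfb also lost its call without male media 24 h replicate 2, and Podn without the libraries of differing description numbers.

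**Figure D5:**
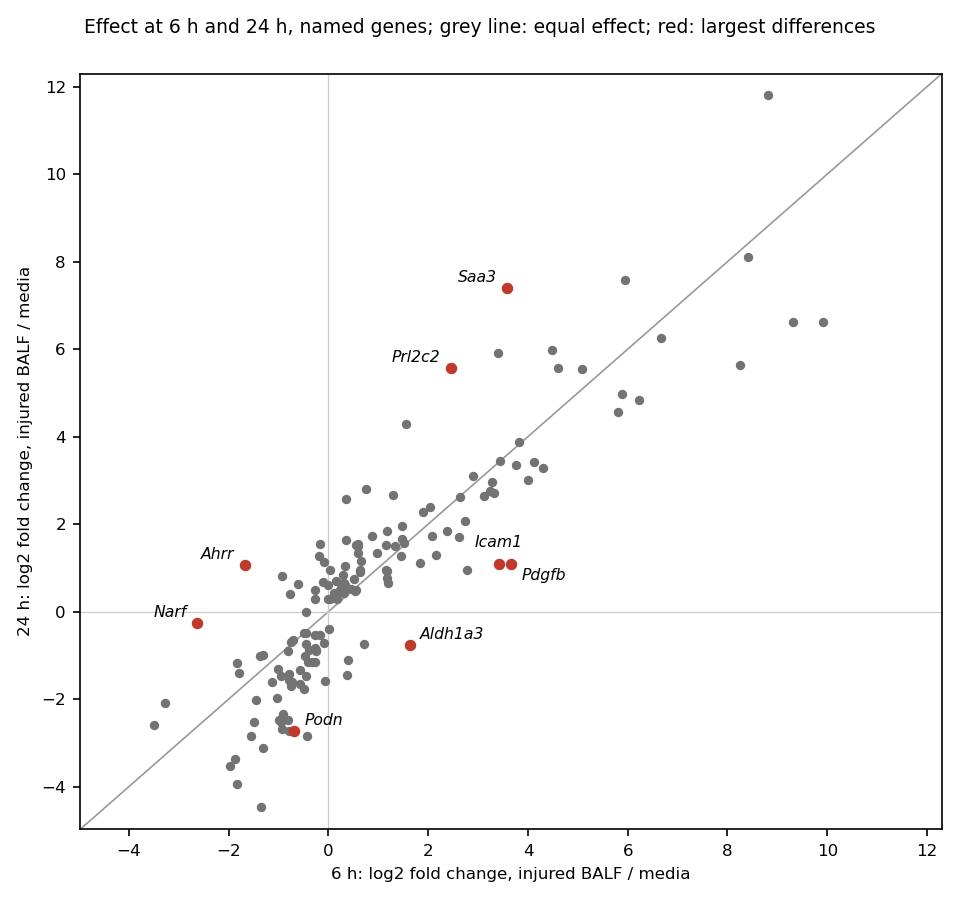
Log2 fold change of injured BALF over media at 6 h (x axis) and 24 h (y axis) for the named genes, with the 8 largest differences in red; the grey line marks equal effects. Saa3 lies above the line at 3.58 and 7.39, and Icam1 below it at 3.42 and 1.10.

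Uninjured BALF shares the media libraries with this comparison, so its values are given side by side only. For Hmgcs1, of cholesterol synthesis, the log2 fold change over media was 0.83 ± 0.13 in uninjured and 0.41 ± 0.13 in injured BALF. For Angptl4 the values were 1.96 ± 0.19 and 3.87 ± 0.21, for Hmox1 1.66 ± 0.32 and 2.61 ± 0.33 and for Mt2 1.47 ± 0.26 and 2.76 ± 0.27. For Nfkbia they were 0.53 and 2.08, for Sod2 0.34 and 1.65, and for Eln -1.55 ± 0.67 and -4.47 ± 0.77. Inflammatory genes varied between the uninjured BALF libraries, with female replicates 1 and 2 highest for the next 3 genes. Nos2 ran from 0.0277 to 6.51 CPM there (median 0.0753), Saa3 from 1.36 to 46.5 CPM (median 2.32) and Ccl2 from 32.9 to 421 CPM (median 61.7). None of these 3 ranges reached the lowest injured BALF value.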

How the data were processed

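The authors deposited 1 table of read counts per gene for all 36 libraries. Per the submitters' processing notes, STAR 2.5.2b, RSEM 1.2.31, DESeq2 and the build GRCm38 were named without role or order, so the whole-number counts may be rounded estimates. Per the labels' protocols, RNeasy columns gave the RNA and the library kit was one for stranded mRNA. Here, all 36 libraries were fitted with edgeR 4.0.16 (R 4.3.3; TMM scaling, low-count filter, 12 groups of treatment, sex and time, 24 residual degrees of freedom), and female and male effects were averaged. CPM values are counts per 1000000 after TMM scaling, each SE comes from the log2 fold change and its F statistic, and p-values were adjusted over 15901 genes. Identifiers were matched to GENCODE M21 (48435 of 48795). The common coefficient of biological variation was 22.5%. The fit was tested on simulated data. Counting intervals cover counting error only.

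The comparison, the 51 gene lists and the naming rule were chosen with earlier results of these data known. Genes were named as the 12 largest rises and 12 largest falls with an average of at least 2 log2 CPM and 1 direction in both sexes, up to 3 called members with the lowest p of each list, a chosen set, and the 4 largest of either sign in each difference test. Other list members were named to show what did not pass. Alternatives were other scalings, filters and tools, libraries left out or summed, the effect of 1 sex within the main fit, and smaller fits. Some named genes are counted but not reported here.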

Additional observations from a re-analysis of the deposited data

Results flagged for a closer look

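Single libraries stood far from the other 5 of their group for some of the named genes. If values were normally distributed, chance alone would mark about 1 in 20 groups in this way. The rule was applied to CPM, which can be skewed toward high values, so chance may mark more. In all, 153 named genes were examined in both groups. In media, female replicate 1, the library with 3.87% mitochondrial counts, was highest for Cmklr1 (22.2 CPM, others 5.31 to 10.3), Nid1 (2820, others 1380 to 1800), Mylk (524, others 200 to 285), Rara (60.5, others 26.7 to 38.8), Fosl1 (49.5, others 8.66 to 22.8), Tfpi2 (5.28, others 2.24 to 3.25) and Cd248 (1280, others 391 to 664). It was lowest for H2-K1 (19.6 CPM, others 35.8 to 44.6) and Prdx5 (121, others 165 to 183). Female media replicate 3 was highest for Cxcl1 (12.9 CPM, others 0.116 to 4.08), Ccn3 (171, others 12.4 to 28.6), Csf2 (0.145, others 0), C3 (128, others 8.01 to 40.3), Lamb1 (665, others 473 to 519), Ptges (51.9, others 27.8 to 33.2) and Slc7a11 (28.5, others 5.10 to 12.3), and lowest for Tpm2 (793, others 1080 to 1120). Female media replicate 2 was highest for Lcn2 (4.38 CPM, others 0 to 1.25), and male media replicate 1 for Ptn (30.1, others 12.8 to 17.7) and Camp (0.117, others 0 to 0.0361).

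In injured BALF, female replicate 3 was highest for Nos2 (271 CPM, others 17.5 to 52.6), Cxcl1 (358, others 126 to 166), Ccn3 (15.2, others 2.37 to 4.13), Ogn (64.1, others 5.06 to 19.2), Cd14 (11, others 8.44 to 9.10), Nod1 (115, others 73.5 to 83.9), C3 (628, others 134 to 293), Mt2 (347, others 212 to 249) and Camp (1.66, others 0.286 to 0.788). Male replicate 3 was highest for Timp3 (1340 CPM, others 610 to 760) and Wnt4 (1.15, others 0.204 to 0.505).

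The effect differed between 24 h and 6 h, by the test of the difference itself, for Saa3 (3.81 on the log2 scale), Prl2c2 (3.10), Ahrr (2.74), Narf (2.36), Pdgfb (-2.56), Aldh1a3 (-2.39), Icam1 (-2.32) and Podn (-2.04). These were the 4 largest differences of either sign among genes with enough reads.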

How the results depend on the processing

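The count of 3774 genes was 4102 with DESeq2, 3774 with 2 other scalings, 3102 and 3593 with other filters and 2553 in the 12 libraries alone. It was 2490 there when sex was ignored. In the main fit it was 695 for the male effect alone, 2148 at an adjusted p of 0.01 and 1106 with a fold of at least 2. With libraries 1 and 2 summed it was 2126, and 1779 where 2 and 3 were summed in female media instead. It ranged from 1341 to 4083 with replicates or single libraries left out. An alternative chosen after seeing the data, without the libraries of differing description numbers and female media replicate 1, gave 2171. The difference between the times, 414 genes, was 653 with DESeq2, 260 with almost no filter, 222 without the libraries of differing description numbers, 39 with libraries 1 and 2 summed and 132 at 0.01, and ranged from 17 to 509 with replicates or single libraries left out. The difference between the sexes stayed at 0 genes under every alternative run. Beyond the smaller number of libraries in some of these fits, the cause was not tested. Of the 6 same-numbered pairs, 3 deviated together (correlations of 0.42 and 0.68 for female replicates 1 and 3 and 0.2 for male replicate 2) and 3 lay between -0.06 and 0.05, so the numbers were not taken as a pairing. With the replicate block the counts were 4512 at 24 h, 657 for the times and 0 for the sexes.

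No named gene called in the main fit changed direction under an alternative in which it was tested. Changes of direction in genes called in neither fit were not counted. Of 148 named genes called at 24 h, all kept the call with DESeq2 and both other scalings. It was kept by 129 with libraries 1 and 2 summed and by 120 without replicate 2 of every group. Within the main fit, 138 kept the call in the female effect alone and 98 in the male effect alone. With single libraries left out, 2 to 6 lost it, among Ahrr, Aldh1a3, Cspg4, Gbp3, Hmgcs1, Kdr, Rara and Rarb. Depth limits the values of genes with few counts in media, such as Nos2, Csf2 and Il1a.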
